A study of Mus musculus with 6 samples.

Results

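Cxcl12, which encodes a chemokine, and the genes of its receptors, Cxcr4 and Ackr3, were taken by symbol from a table of read-pair counts in mouse lung, and are 3 of its 56262 genes. The libraries came from whole lungs of 3 R/R mice and 3 WT littermates, all 8 weeks of age, untreated and on a C57BL/6 background. R/R mice carry the RBM47 substitutions K329R and K332R on both alleles, introduced by CRISPR/Cas knock-in, so that every cell of the animal carries them and no promoter or Cre limits them to a cell type. RBM47 is an RNA-binding protein, and K329 is a lysine to which the ubiquitin-like protein ISG15 can be attached. In the paper, lung injury induced by lipopolysaccharide was seen in both genotypes and was more severe in R/R mice. The lungs were sequenced to look for molecular changes behind that difference, and the libraries here are of untreated lungs. Gene counts do not show the substituted codons and cannot check the genotype, and Rbm47 itself had a CPM (the usual library-scaled count, here with edgeR's TMM factors) of 32.7, 33.5 and 34.1 in R/R lungs, against 28.8, 30.5 and 34.4 in WT lungs. Values of single libraries are listed here and throughout in the order of replicates 1, 2 and 3.

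CXCL12 is a homeostatic chemokine made by fibroblasts, pericytes and endothelial cells and held near them by heparan sulfate. It acts through CXCR4, a G protein-coupled receptor on most leukocytes that keeps progenitors and neutrophils in the bone marrow and guides lymphocytes. ACKR3 binds CXCL12 and CXCL11 without G protein signalling and removes them from the tissue, so that it limits how much CXCL12 reaches CXCR4.

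The libraries held between 16501092 and 18141067 counts, and a single count was worth between 0.0552 and 0.0607 CPM. Of all genes, 17120 passed the filter on low counts, Cxcl12, Cxcr4 and Ackr3 included. The label of lung was checked against marker lists: the 9 alveolar type 2 genes summed to between 19908 and 26649 CPM, whereas the thymus genes Rag1, Rag2, Ptcra and Dntt had at most 7 counts in any library. Other genes of the thymus list were present, such as Satb1 at 397 to 510 counts. The 9 cardiac muscle genes varied between libraries, with sums of 69.5, 105 and 134 CPM in R/R and 180, 280 and 95.4 CPM in WT lungs. These sums overlapped. All 8 cardiac genes tested were lower in R/R lungs, but none at an adjusted p under 0.05 (edgeR). WT replicate 3 stood between the genotypes on the first principal component, at 5.98 against 28.77 and 22.88 in the other WT libraries and between -21.52 and -17.25 in R/R lungs. Results for the 3 genes are therefore also given without it.

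Cxcl12 (ENSMUSG00000061353.11) lies on the plus strand of chromosome 6 from 117168535 to 117181367 in GRCm38, and its 4 annotated transcripts, 3 of them protein-coding, cover 8176 exonic bases. Cxcr4 (ENSMUSG00000045382.6), on chromosome 1 between 128588199 and 128592293, is read from the minus strand and has 2 transcripts over 1808 exonic bases. Ackr3 (ENSMUSG00000044337.5) lies on the plus strand of chromosome 1 from 90203980 to 90216751 and has 2 transcripts over 3348 exonic bases. No other annotated gene overlaps any of the 3, so the counting without strand did not mix them with a neighbour. Counts per gene do not separate the Cxcl12 transcripts.

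The 250 bases before each start site are shown because the core elements of the 3 promoters differ. The sequences are from RefSeq on GRCm38.p6, at chr6:117168285-117168534 (plus strand) for Cxcl12, chr1:128592300-128592549 (minus strand) for Cxcr4 and chr1:90203730-90203979 (plus strand) for Ackr3. They are written 5′ to 3′ on the strand of the gene, and capitals mark matches on either strand to the GC box GGGCGG and to TATAAA.
Cxcl12: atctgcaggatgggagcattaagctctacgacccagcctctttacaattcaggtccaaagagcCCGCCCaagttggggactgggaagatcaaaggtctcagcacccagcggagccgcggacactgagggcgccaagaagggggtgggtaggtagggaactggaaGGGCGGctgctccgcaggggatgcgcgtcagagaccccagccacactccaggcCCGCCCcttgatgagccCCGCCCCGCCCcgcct
Cxcr4: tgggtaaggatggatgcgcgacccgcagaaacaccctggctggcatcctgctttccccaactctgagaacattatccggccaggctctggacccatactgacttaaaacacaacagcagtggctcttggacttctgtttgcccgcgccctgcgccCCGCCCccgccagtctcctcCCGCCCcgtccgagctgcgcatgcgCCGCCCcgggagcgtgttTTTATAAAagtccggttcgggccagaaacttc
Ackr3: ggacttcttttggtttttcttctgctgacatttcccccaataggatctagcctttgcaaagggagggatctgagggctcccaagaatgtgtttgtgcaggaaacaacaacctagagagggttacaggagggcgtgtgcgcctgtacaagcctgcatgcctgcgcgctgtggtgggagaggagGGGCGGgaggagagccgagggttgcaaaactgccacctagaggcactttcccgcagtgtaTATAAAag
The Cxcl12 window held 5 GC boxes, some of them overlapping, and no TATAAA, at 64.4% G and C. The Cxcr4 window held 3 GC boxes and 2 TATAAA matches that overlap on opposite strands, at 61.2% G and C. The Ackr3 window held 1 GC box and 1 TATAAA match, at 54.0% G and C. Over 32851 mouse promoters of the same length, 32.7% held a GC box, 12.4% held TATAAA, and the median G and C content was 52.4%. These matches describe the letters in the windows, and no binding was measured here.

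Cxcl12 mRNA was lower in R/R lungs. Its CPM was 319, 402 and 333 in R/R lungs, against 660, 613 and 488 in WT lungs. Every R/R library was below every WT library, with R/R replicate 2 the highest of its genotype and WT replicate 3 the lowest of its own. The mean CPM was 352 ± 44.4 in R/R and 587 ± 88.9 in WT (SD over n = 3 libraries per genotype), a fall of 40.1%. The log2 fold change was -0.74 (SE 0.11, 95% confidence interval -0.98 to -0.49), and the quasi-likelihood test of edgeR gave an adjusted p of 0.0104. Of all genes tested, 1.75% passed this threshold and 1.10% passed it as lower in R/R lungs. R/R below WT without overlap was found for 9.50% of the genes tested. An exact two-sided permutation test of log2 CPM gave p = 0.1, the smallest that 3 libraries against 3 allow. Without WT replicate 3 the log2 fold change was -0.86 (edgeR, adjusted p = 0.000486). In whole tissue, fewer cells that make Cxcl12 and less Cxcl12 mRNA per cell cannot be told apart.

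Cxcr4, the signalling receptor, did not pass the test. Its CPM was 109, 83.6 and 75.9 in R/R lungs, against 76, 89.1 and 86.9 in WT lungs. The genotypes overlapped, and R/R replicate 1 was the highest of the 6 libraries. Cxcr4 averaged 89.5 ± 17.3 CPM in R/R, against 84 ± 7.03 CPM in WT (SD over n = 3 per genotype). The log2 fold change was 0.09 (SE 0.11, edgeR, adjusted p = 0.788), and the 95% confidence interval of the fold ran from 0.896 to 1.27. Its sign rested on R/R replicate 1, without which it was -0.08 (edgeR, adjusted p = 0.785), and without WT replicate 3 it was 0.11.

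Ackr3, the scavenging receptor, did not pass the test either. Its CPM was 35.1, 40.6 and 31 in R/R lungs, against 37, 37 and 29.2 in WT lungs. The genotypes overlapped, and replicate 3 was the lowest library in each. Ackr3 averaged 35.6 ± 4.79 CPM in R/R, against 34.4 ± 4.54 CPM in WT (SD over n = 3 per genotype). The log2 fold change was 0.05 (SE 0.11, edgeR, adjusted p = 0.903), and the 95% confidence interval of the fold ran from 0.87 to 1.23. Its sign turned to -0.06 without R/R replicate 2 and also to -0.06 without WT replicate 3. Counting error was small for all 3 genes, at most 1.33% of a library's value for Cxcl12, 2.83% for Cxcr4 and 4.48% for Ackr3, less than the SD between libraries of a genotype.

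**Figure D1:**
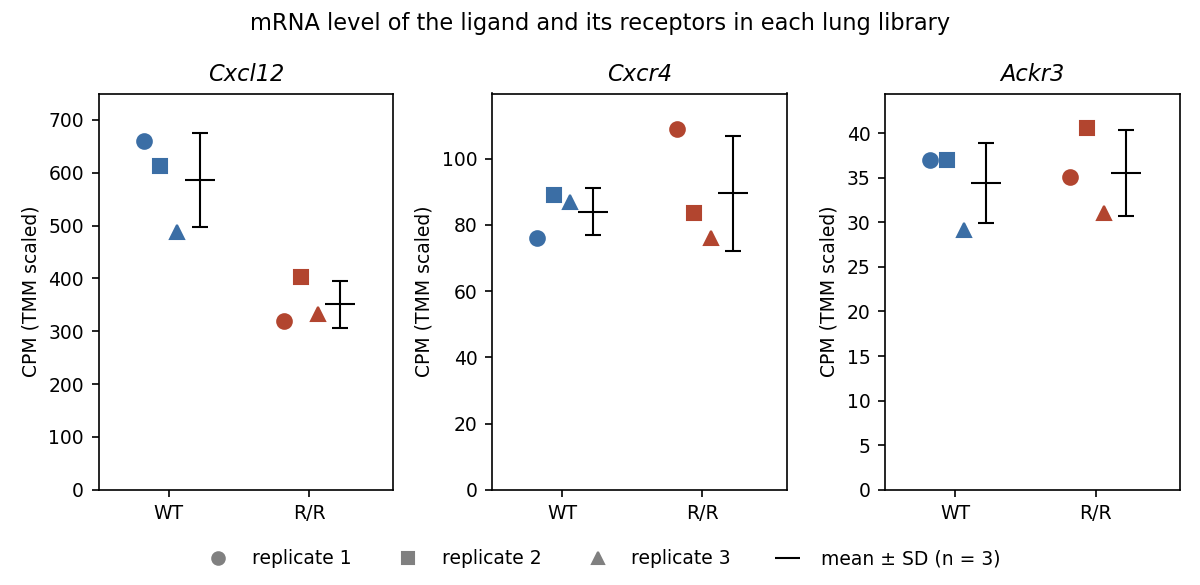
CPM (TMM scaled, axis from 0) of Cxcl12, Cxcr4 and Ackr3 in each lung library of WT and R/R mice, with a marker shape for each replicate number and bars for the mean ± SD of 3 libraries. Cxcl12 sits between 319 and 402 CPM in R/R and between 488 and 660 CPM in WT lungs, whereas the genotypes overlap for both receptors.

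The change of the ligand was next set against each receptor within a library, where the library total cancels. These ratios are of CPM and are not corrected for gene length, so only their difference between genotypes is read. The log2 ratio of Cxcl12 to Cxcr4 was 1.55, 2.27 and 2.13 in R/R lungs, against 3.12, 2.78 and 2.49 in WT lungs. All R/R libraries were below all WT libraries, with a difference of -0.81. The log2 ratio of Cxcl12 to Ackr3 was 3.18, 3.31 and 3.42 in R/R and 4.16, 4.05 and 4.06 in WT lungs, in the same order. Here the difference was -0.78 and the spread within a genotype was smaller, with an SD of 0.12 in R/R and 0.06 in WT lungs (n = 3 each). For each of these ratios the exact two-sided permutation p was 0.1, its smallest value, and 0.12 when adjusted over the 6 ratios computed. The log2 ratio of Cxcr4 to Ackr3 was 1.63, 1.04 and 1.29 in R/R and 1.04, 1.27 and 1.57 in WT lungs. Between the genotypes the receptors' ratio overlapped between the genotypes, with a difference of 0.03 (exact two-sided permutation p = 0.7, also 0.7 when adjusted over the 6 ratios) that turned to -0.13 without R/R replicate 1 and to -0.10 without WT replicate 1.

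**Figure D2:**
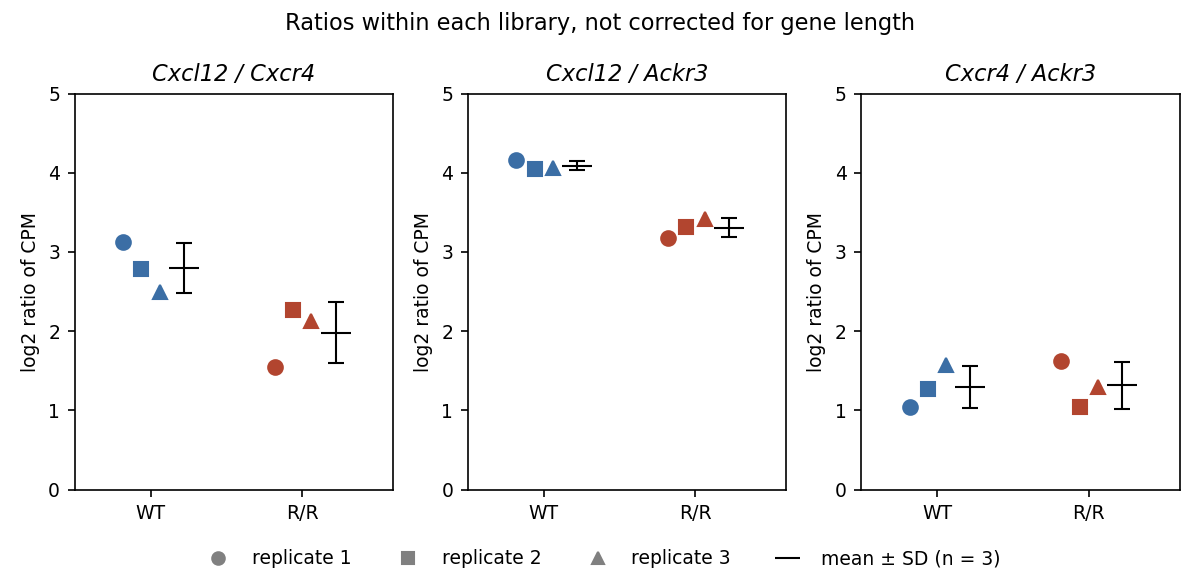
Log2 ratio of CPM between pairs of the 3 genes in each library, with bars for the mean ± SD of 3 libraries per genotype. The ratio of Cxcl12 to Ackr3 lies between 3.18 and 3.42 in R/R and between 4.05 and 4.16 in WT lungs, and that of Cxcr4 to Ackr3 overlaps between the genotypes.

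The levels of the 3 genes can be set side by side per length, in TPM (the counts per exonic base of each gene, scaled to the same total in every library). In WT lungs Cxcl12 was the highest, at 247 ± 43.2 TPM, followed by Cxcr4 at 159 ± 12.4 TPM and Ackr3 at 35.3 ± 5.5 TPM (SD, n = 3 each). Cxcl12 was above Cxcr4 in all 3 WT libraries, which held 199 to 282 TPM of the ligand and 147 to 171 TPM of the receptor. In R/R lungs Cxcr4 was at 164 ± 33.5 TPM and Cxcl12 at 142 ± 14.8 TPM, ranges that overlapped, and Ackr3 was at 35.2 ± 4.07 TPM (SD, n = 3 each). Within R/R libraries Cxcl12 was above Cxcr4 only in replicate 2, at 159 against 150 TPM. The exonic length of Cxcl12 joins several transcripts, which lowers its TPM. The order of ligand and receptor, and whether it differs between genotypes, therefore depends on this length. The fold change of Cxcl12 between genotypes does not.

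Among 40 chemokine ligand genes, Cxcl12 held rank 3 by TPM in WT replicates 1 and 2 and rank 4 in WT replicate 3 and all R/R libraries. These ranks also depend on the joined exonic length. The 5 ligands with the highest mean were Cxcl15 (a lung epithelial chemokine) at 2096 TPM, Cxcl14 at 529 TPM, Ccl6 at 214 TPM, Cxcl12 at 195 TPM and Cx3cl1, the membrane-bound ligand of patrolling monocytes, at 73.7 TPM. The ligand that stood just above Cxcl12 at rank 4 was Ccl6, a myeloid chemokine at 200 to 230 TPM in R/R and 198 to 229 TPM in WT lungs. Of 20 ligand genes tested, Cxcl12 was the only one that passed the edgeR threshold, and 5 had an unadjusted p under 0.05 by edgeR, against 14.2% of all genes tested. The other ligand genes were below the filter. Among 22 receptor genes, Cxcr4 held rank 1 and Ackr3 rank 3 in all 6 libraries, with the scavenging receptor Ackr2 between them. The receptor means were 162 TPM for Cxcr4, 59.2 for Ackr2, 35.3 for Ackr3, 23.0 for the lymph node homing receptor Ccr7 and 20.2 for the monocyte receptor Ccr2, and none of 19 receptor genes tested passed by edgeR, DESeq2 or limma-voom (6 had an unadjusted p under 0.05 by edgeR, as did 14.2% of all genes tested, the share to read the later counts of this kind against).

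**Figure D3:**
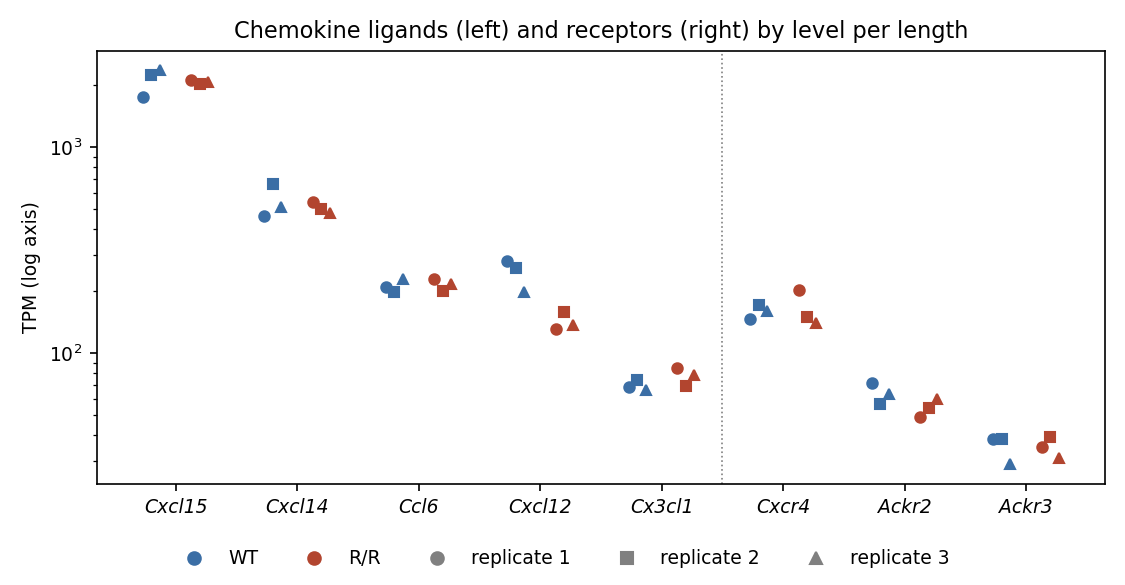
TPM on a log axis of the 5 highest chemokine ligands and of Cxcr4, Ackr2 and Ackr3, with a point for each library, WT on the left and R/R on the right of each gene. Cxcl12 moves from 199 to 282 TPM in WT to 131 to 159 TPM in R/R lungs, below Ccl6 in all R/R libraries and in WT replicate 3, while the points of both of its receptors overlap. The order of genes depends on their exonic lengths.

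The rest of the CXCL12 pathway was followed in 107 further genes in 7 lists by role, of which 102 were tested. Of these, 5 passed the edgeR threshold, 4 lower and 1 higher in R/R lungs, against 1.75% of all genes tested, 1.10% lower and 0.648% higher. In all, 57 were below and 45 above 0, where 48.8% of all genes tested lay below, with a median log2 fold change of -0.01 beside 0.00 over all genes tested. Between the genotypes, 25 of the 102 did not overlap, against 18.7% of all genes tested. The count of 5 rested on the libraries used, at 8 without WT replicate 3, 2 without R/R replicate 2, 2 without WT replicate 1 and 3 without R/R replicate 3.

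Other ligands and receptors of the axis include CXCL11 and adrenomedullin, which ACKR3 also binds. None of 8 genes tested passed by edgeR, DESeq2 or limma-voom, 1 had an unadjusted p under 0.05, and Cxcl11 was below the filter. The lowest p in this list belonged to Calcrl, the receptor of adrenomedullin, with a log2 fold change of -0.26 (edgeR, adjusted p = 0.193). Cxcr3, the signalling receptor of CXCL11 on T cells, was at -0.72 (adjusted p = 0.359) and Adm, the adrenomedullin gene, at -0.38 (adjusted p = 0.514).

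Proteases that trim and inactivate CXCL12 had 1 of 8 tested genes past the threshold. Mmp14, a membrane-bound metalloproteinase, was at 101, 91.5 and 107 CPM in R/R and 121, 136 and 121 CPM in WT lungs. Its libraries did not overlap, and it fell with a log2 fold change of -0.34 (edgeR, adjusted p = 0.0432), a call that was kept in 1 of the 6 fits with a library left out. The neutrophil gelatinase Mmp9 was at -0.80 (adjusted p = 0.175) with overlapping genotypes, and the related Mmp2 was at -0.14 (adjusted p = 0.467). The neutrophil proteases Elane and Ctsg were below the filter.

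Heparan sulfate holds CXCL12 on cells and matrix, and its list had 2 of 18 genes past the threshold, in opposite directions. Sulf1, an extracellular enzyme that removes 6-O-sulfate from heparan sulfate, was at 68.9, 73.1 and 80.1 CPM in R/R and 42.3, 49.3 and 51.4 CPM in WT lungs. All R/R libraries were above all WT libraries, and it rose with a log2 fold change of 0.63 (SE 0.08, edgeR, adjusted p = 0.00658), which passed in all 6 fits with a library left out. Hspg2, which encodes the basement membrane proteoglycan perlecan, was at 589, 566 and 612 CPM in R/R and 701, 787 and 697 CPM in WT lungs. It fell with a log2 fold change of -0.31 (edgeR, adjusted p = 0.0488), a call that was kept in 4 of 8 alternatives with all 6 libraries and in 1 of 6 with a library left out. The sulfotransferase gene Hs3st1 was at 0.39 (adjusted p = 0.0794).

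Signalling below CXCR4 had 1 of 29 tested genes past the threshold. Rac2, a small GTPase of blood cells, was at 45.6, 43.8 and 38.4 CPM in R/R and 64.6, 51.3 and 64.9 CPM in WT lungs. All R/R libraries were below all WT libraries, and it fell with a log2 fold change of -0.50 (SE 0.10, edgeR, adjusted p = 0.0321), which passed in 3 of the 6 fits with a library left out and was lost without WT replicate 1 or without R/R replicates 2 or 3. The exchange factors of Rac in leukocytes, Prex1 at -0.25 (adjusted p = 0.113) and Vav1 at -0.34 (adjusted p = 0.14), did not pass.

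Receptor desensitization and trafficking had 0 of 18 genes past the threshold by edgeR, DESeq2 or limma-voom, with 4 at an unadjusted p under 0.05. Transcription regulators tied to CXCL12 or CXCR4 had 0 of 14 by the same tools, with 0 at an unadjusted p under 0.05. The receptor kinases Grk5 at -0.19 (adjusted p = 0.13) and Grk6 at -0.18 (adjusted p = 0.14) and the G protein regulator Rgs2 at -0.52 (adjusted p = 0.153) had the lowest p of the former list. Nfkb2 of the non-canonical NF-κB pathway at -0.19 (adjusted p = 0.373), the receptor Notch1 at 0.11 (adjusted p = 0.479) and the flow-responsive factor Klf2 at 0.38 (adjusted p = 0.51) had the lowest of the latter.

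Integrins and their ligands, through which CXCL12 arrests leukocytes on endothelium, had 1 of 7 genes past the threshold. Itga4, the α4 chain of VLA-4, was at 68.7, 64.9 and 71.2 CPM in R/R and 91, 90.8 and 89.4 CPM in WT lungs. The genotypes were separate, and it fell with a log2 fold change of -0.41 (SE 0.06, edgeR, adjusted p = 0.00893), which passed in all 6 fits with a library left out. Its partner Itgb7 was at -0.43 (adjusted p = 0.0668) and Itgal, a chain of LFA-1, at -0.36 (adjusted p = 0.0786), both with R/R below WT in all libraries. Rac2, Vav1, Itgb7 and Itgal are genes of leukocytes, and marker lists of lymphocytes were lower as well: the summed level of 12 B cell genes was 155 to 208 CPM in R/R and 270 to 337 CPM in WT lungs, and that of 14 T cell genes 105 to 129 and 152 to 182 CPM. Not all genes of leukocytes in these lists went this way. Itgb2, the partner chain of Itgal, was at -0.03 (edgeR, adjusted p = 0.935), and Cxcr4 at 0.09 (adjusted p = 0.788). The alveolar macrophage list had 7 of 9 genes above 0 and a median log2 fold change of 0.37. The part of these cells in these results was not tested.

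**Figure D4:**
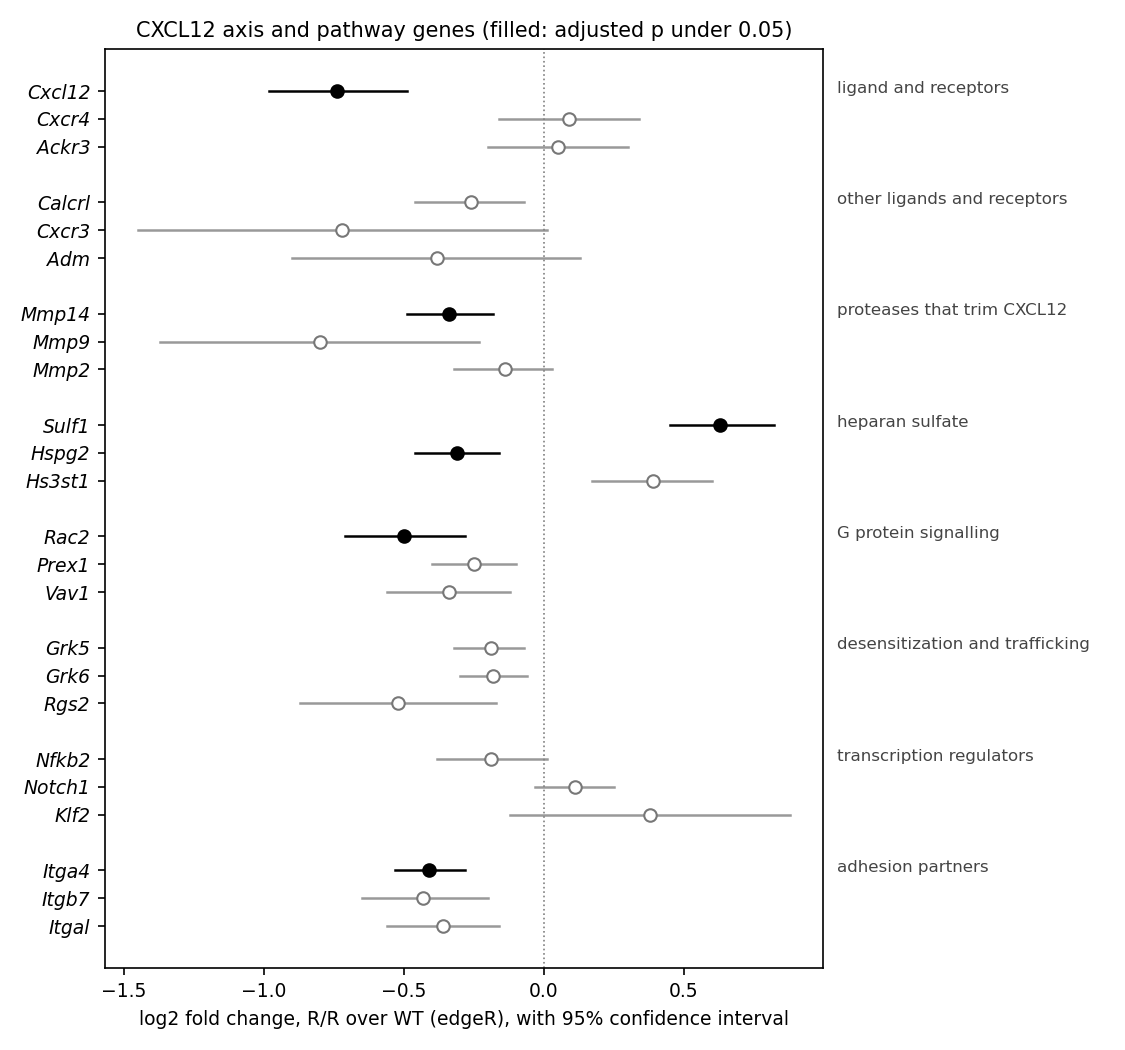
Log2 fold change of R/R over WT (edgeR) with 95% confidence interval for Cxcl12, Cxcr4 and Ackr3 and, in each pathway list, the called genes and the 3 genes with the lowest p, with filled points for an adjusted p under 0.05. Cxcl12 at -0.74 and Sulf1 at 0.63 are the filled points farthest from 0 on either side, and the intervals of both receptors span 0.

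Cell types that make CXCL12 were compared through lists of their marker genes. The 11 pan-endothelial genes had none past the threshold by edgeR, DESeq2 or limma-voom and 1 at an unadjusted p under 0.05. Their median log2 fold change was -0.09, and they summed to 5513 to 5739 CPM in R/R and 5458 to 6191 CPM in WT lungs, which overlap. Arterial endothelial genes had 2 of 11 past the threshold in opposite directions, the Notch ligand Dll4 at 0.39 (adjusted p = 0.0297) and the connexin gene Gja4 at -0.41 (adjusted p = 0.0302). Aerocyte genes, of the capillary cells that face the air, had 1 of 8, the apelin gene Apln at -0.54 (adjusted p = 0.00893), and summed to 3050 to 3368 CPM in R/R and 3430 to 3685 CPM in WT lungs.

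Among mesenchymal lists, that of adventitial fibroblasts overlapped in its sum, at 4365 to 5391 CPM in R/R and 4542 to 5179 CPM in WT lungs. None of its 13 genes passed by edgeR or limma-voom, 2 passed by DESeq2, and 3 had an unadjusted p under 0.05. The alveolar fibroblast list did not overlap, at 5450 to 6638 CPM in R/R and 6878 to 7877 CPM in WT lungs, with 2 of 13 genes past the threshold and a median of -0.09. The separation of this sum rested on Mfap4: without it the sums overlapped, at 4965 to 6162 CPM in R/R and 5965 to 6314 CPM in WT lungs. The genes past the threshold were the extracellular matrix gene Mfap4 at -1.44 (edgeR, adjusted p = 0.00193) and the amino acid transporter gene Slc7a10 at -0.56 (adjusted p = 0.0331). Pericyte genes summed to 1485 to 1658 CPM in R/R and 1795 to 2028 CPM in WT lungs, with 9 of 11 genes below 0, a median of -0.25, and the growth factor receptor gene Pdgfrb at -0.37 (adjusted p = 0.0268) and the guanylate cyclase gene Gucy1a1 at -0.36 (adjusted p = 0.0462) past the threshold.

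Cxcl12 was lower in R/R lungs also relative to the sum of the endothelial list, with a log2 ratio of -4.17, -3.81 and -4.05 in R/R lungs, against -3.23, -3.32 and -3.48 in WT lungs. The genotypes did not overlap in this ratio, and the difference was -0.66. The difference was -0.79 relative to adventitial fibroblast genes and -0.47 relative to alveolar fibroblast genes, without overlap in either. The latter was -0.74 with the median over the list in place of its sum and -0.63 with Mfap4 left out of the sum. Most of the adventitial fibroblast sum was a single gene, Gsn, at a mean of 3451 CPM. With the median over that list in place of its sum, the difference was -0.68. Each of these had an exact two-sided permutation p of 0.1, the smallest possible, and 0.12 when adjusted over the 6 ratios. A sum of marker genes is not a count of cells, and the part of these cell types in the Cxcl12 result was not tested further.

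Cells that carry CXCR4 were followed in lists of leukocytes, and unlike Cxcr4 the summed B cell and T cell lists did not overlap between the genotypes. The B cell list had 6 of 12 genes past the threshold, all lower, such as the CD20 gene Ms4a1 at -0.99 (adjusted p = 0.00675), and a median of -0.59. The T cell list had all 14 genes below 0 and 1 past the threshold, the transcription factor gene Tcf7 at -0.51 (adjusted p = 0.00918). The 8 tested neutrophil genes were all below 0 with a median of -0.98, but their sum overlapped, at 128 to 175 CPM in R/R and 140 to 293 CPM in WT lungs. None of them passed by edgeR or limma-voom, 2 passed by DESeq2, and 7 had an unadjusted p under 0.05, against 14.2% of all genes tested. The sums of NK cell, dendritic cell and plasma cell genes overlapped between the genotypes, with medians of 0.11, 0.06 and -0.33. In these lists no gene passed by edgeR, DESeq2 or limma-voom, and 1 of 9, 1 of 9 and 4 of 7 tested genes had an unadjusted p under 0.05. Most of the plasma cell sum was Sdc1 and Xbp1, at means of 250 and 231 CPM. Jchain of that list was at 4.83, 7.83 and 1.65 CPM in R/R and 5.71, 16.4 and 14.9 CPM in WT lungs. Its log2 fold change was -1.37 (edgeR, adjusted p = 0.164). Blood genes summed to 1175 to 2219 CPM in R/R and 2425 to 3220 CPM in WT lungs, with the haemoglobin gene Hba-a1 at -0.78 (adjusted p = 0.0478).

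Of all 34 marker lists, 14 had sums that did not overlap between the genotypes, 9 with R/R below WT and 5 with R/R above. Alveolar macrophage genes summed to 892 to 1009 CPM in R/R and 622 to 798 CPM in WT lungs, with the chitinase-like gene Chil3 at 0.68 (edgeR, adjusted p = 0.0233) as the called gene of 9. Most of this sum was Chil3 itself, at 582 to 665 CPM in R/R and 340 to 489 CPM in WT lungs. Alveolar type 2 genes were above 0 in 9 of 9, at 25254 to 26649 CPM in R/R and 19908 to 24836 CPM in WT lungs, and lymphatic endothelial genes in 6 of 7, at 596 to 677 and 491 to 570 CPM. In neither list did a gene pass by edgeR or limma-voom, 1 gene in each passed by DESeq2, and 4 and 3 had an unadjusted p under 0.05. The largest part of the lymphatic sum was Lyve1, at a mean of 277 CPM, which overlapped between the genotypes. Of the lymphatic genes counted as above 0, Prox1 and Pdpn were at 0.00 when rounded. The sum of monocyte and interstitial macrophage genes was 1849 to 1903 CPM in R/R and 1904 to 2050 CPM in WT lungs. Most of this sum was Ace, which overlapped, at 1443 to 1507 CPM in R/R and 1501 to 1673 CPM in WT lungs. Of the 11 genes in this list, 5 had R/R above WT without overlap and 2 had R/R below WT. Over all genes tested, 18.7% were without overlap in either direction. The rest of the 14 were lists named above and those of the circadian clock, immediate early and interferon-induced genes. Evening-phase clock genes summed to 1214 to 1377 CPM in R/R and 871 to 950 CPM in WT lungs, with 5 of 10 genes past the threshold and higher, such as Dbp at 0.83 (edgeR, adjusted p = 0.00193). Of 5 morning-phase genes, 2 passed and were lower, Npas2 at -1.32 (adjusted p = 0.00893) and Arntl, which encodes BMAL1, at -0.82 (adjusted p = 0.0444). Immediate early genes were above 0 in 13 of 13, with Nr4a1 at 0.76 (adjusted p = 0.0148) past the threshold, a gene that the monocyte list also holds. None of 13 hypoxia-induced and 11 glucocorticoid-induced genes passed by edgeR, DESeq2 or limma-voom, with 3 and 5 at an unadjusted p under 0.05, against 14.2% of all genes tested. All 20 type I interferon-induced genes were below 0, with 5 past the threshold and a summed level of 512 to 539 CPM in R/R and 633 to 671 CPM in WT lungs. The labels give no hour of collection, and the part of these differences in the Cxcl12 result was not tested.

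**Figure D5:**
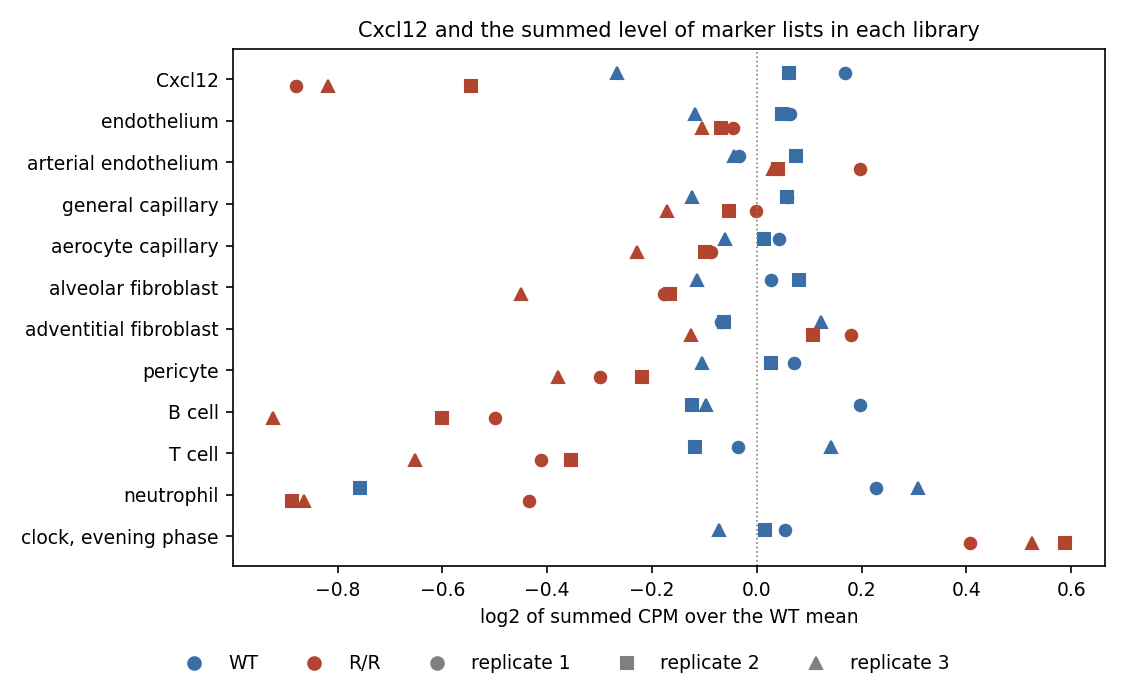
Log2 of the CPM of Cxcl12, and of the summed CPM of marker lists, in each library over the mean of the WT libraries. Cxcl12 is lower in all R/R libraries, and so are the lists of aerocyte capillaries, alveolar fibroblasts (through Mfap4), pericytes, B cells and T cells. The pan-endothelial, arterial, general capillary, adventitial fibroblast and neutrophil lists overlap between the genotypes, and the evening-phase clock list is higher.

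The patterns of the 3 genes over the 6 libraries were then compared. The Pearson correlation of log2 CPM was -0.374 between Cxcl12 and Cxcr4, 0.223 between Cxcl12 and Ackr3 and 0.060 between Cxcr4 and Ackr3. With the genotype means subtracted, the correlation of Cxcl12 and Ackr3 was 0.888: within WT both were lowest in replicate 3, and within R/R both were highest in replicate 2. The genes most like Cxcl12 over the 6 libraries, among 11140 compared, were Strap (0.993), Sipa1l2 (0.990), Pcdhgc3 (0.990), Ahdc1 (0.989) and Ttll5 (0.989), with log2 fold changes between -0.26 and -0.16 that did not pass the test. Those most like Cxcr4 were Atpaf2 (0.989), Rnf111 (0.985), Abcg3 (0.982), Pik3ip1 (0.981) and Bckdk (0.977), and those most like Ackr3 were Abi2 (0.993), Zfand5 (0.987), Pla2r1 (0.979), 1110004F10Rik (0.978) and Tln2 (0.975). The points share genotype and library, and with 6 of them these correlations are a description.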

How the data were processed

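RNA was measured in lungs of 3 R/R and 3 WT mice, grouped and numbered by the sample labels. Paired reads of 150 bases were aligned by the authors with HISAT2 2.1.0 (mm10, GRCm38). The deposited values are raw counts per gene, made by the authors with featureCounts 2.0.1 on GENCODE M25 without regard to strand, and were not normalized. The last deposited column is an estimated count in the records of this work only, since a header line was misread there. It holds whole numbers, and nothing was rounded. The submitters' notes also name DESeq2.

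Library totals were 18071818, 16910843 and 16815020 in R/R replicates 1, 2 and 3 and 16501092, 18141067 and 17117977 in WT replicates 1, 2 and 3. Confidence intervals of fold changes were taken from the SE of the edgeR fit, which includes the spread between libraries. The percentages given as counting error do not include it. Replicates of a genotype differed by more than sampling noise (chi-square per degree of freedom 5.65 to 9.09). Symbols matched 55141 of 56262 identifiers. After filterByExpr (at least 10 counts, total at least 15), the 17120 genes left were scaled with TMM factors and fitted by genotype in edgeR 4.0.16 (glmQLFit, glmQLFTest, R 4.3.3), with Benjamini-Hochberg adjustment and a threshold of 0.05 without a minimum fold. Ratios used log2 CPM with a prior count of 0.5. The alternatives were DESeq2 1.42.0, limma-voom (limma 3.58.1), other scaling and filters, the replicate number as a block and each library left out.

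The genes, the pathway and marker lists and the tests were chosen with earlier results of these data known. Named genes are the 3 genes, in each pathway list the called genes and the 3 with the lowest p, examples among the called genes of the marker lists described (the rule named all of them, and 1 B cell gene is not reported here), the 5 highest chemokine ligands and receptors by TPM, and the 5 genes most like each of the 3. Genes named in the check of the label, or to show what a list's sum or its other members did, were added to these. Of 34 marker lists, those tied to CXCL12 or its receptors, or whose summed CPM did not overlap between the genotypes, are described. Those used to check the label of lung are described as well. On simulated counts for R/R against WT over 17120 genes, 93% of genes changed by 0.75 on the log2 scale and 99% of those changed by 1.5 were recovered. Of the genes called, 11.9% were unchanged ones. The changed genes were drawn only from genes with a mean above 5 CPM, so these shares recovered do not cover genes of lower level.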

Additional observations from a re-analysis of the deposited data

How the results depend on the processing

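Cxcl12 passed the threshold and was lower in R/R lungs under all 14 alternatives, with a log2 fold change between -0.86 and -0.65 with a library left out (edgeR, adjusted p between 0.000486 and 0.048) and an adjusted p of at most 0.0128 with all 6 libraries. Cxcr4 and Ackr3 passed under none. With a library left out, Cxcr4 lay between -0.08 and 0.20 and Ackr3 between -0.06 and 0.14, and the log2 ratio of Cxcr4 to Ackr3 between -0.13 and 0.17. Those 3 results changed sign: Cxcr4 at -0.08 without R/R replicate 1, Ackr3 at -0.06 without R/R replicate 2 or WT replicate 3, and the ratio at -0.13 without R/R replicate 1 and -0.10 without WT replicate 1. The other ratios kept their sign, with a library left out from -0.97 to -0.60 for Cxcl12 to Cxcr4, -0.84 to -0.72 to Ackr3, -0.76 to -0.58 to endothelial, -0.54 to -0.36 to alveolar fibroblast and -0.98 to -0.66 to adventitial fibroblast genes. With the median over the list in place of its sum, these last were -0.72, -0.74 and -0.68, and that to alveolar fibroblast genes was -0.63 without Mfap4, chosen after the data were seen.

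The number of genes called moved more, from 300 to 529 with DESeq2, 1109 with no filter beyond 1 count in total, and between 65 and 621 with a library left out, the highest without WT replicate 3 and the lowest without WT replicate 1. Pathway genes called, a count added after the data were seen, went from 5 to 8 with DESeq2, 15 with no filter, and 2 to 8 with a library left out. The causes were not tested. With the replicate number as a block, 446 genes were called and Cxcl12 was at -0.73 (adjusted p = 0.00242). Same-numbered libraries shared only a number, with correlations of their deviations between -0.015 and -0.004, and each library correlated best with a library of another number.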
